A study of Mus musculus with 6 samples.

Results

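Gdpd3, Plaat1 and 8 related genes, which encode enzymes of N-acyl phospholipids and their products and 2 further members of the glycerophosphodiesterase family, were followed in whole mouse hearts. The 10 genes were Plaat1, Plaat3, Napepld, Abhd4, Gde1, Gdpd1, Gdpd2, Gdpd3, Gdpd5 and Faah. Each was read by 1 probe set annotated to that gene alone, so they accounted for 10 of the 21789 probe sets with exactly 1 gene symbol, and 0 probe sets listed one of them together with another gene. Hearts came from 3 Ppif-/- mice, global knockouts that lack cyclophilin D in all tissues and were bred onto C57BL/6 from a Sv129 background, and from 3 wild-type (WT) C57BL/6 mice. All mice were 8 weeks old and untreated as far as the labels state, and the series sets out to find transcript differences that precede cardiac dysfunction. The sources used here do not say whether WT mice were littermates or how many backcrosses were made. The genes were picked with the difference between these same hearts already known. Their differences between genotypes are therefore given as a description, with errors but without p-values.

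N-acyl phosphatidylethanolamine is a membrane phospholipid with a fatty acid on the amine of its head group, placed there by N-acyltransferases such as the PLAAT enzymes. It is the precursor of N-acylethanolamines, a family of lipid messengers that includes anandamide and palmitoylethanolamide. One route to them is a single cut by the phospholipase D encoded by Napepld. Another removes the O-linked acyl chains first, through ABHD4, and then uses glycerophosphodiesterases, of which GDE1 acts on the fully deacylated intermediate while the products of Gdpd1 and Gdpd3 act as lysophospholipases D. The last enzymes also release lysophosphatidic acid, itself a signalling lipid. FAAH ends the signal by hydrolysing N-acylethanolamines.

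Values are log2 expression after RMA, which corrects background, normalises across arrays and combines the probes of each set into a single value. Array medians lay between 6.03 and 6.11, and the correlation of arrays across probe sets, which are not independent, was 0.99 to 0.993 for hearts of the same genotype and 0.987 to 0.991 otherwise. Ppif itself read 6.00, 6.25 and 6.44 in Ppif-/- hearts, against 11.44, 11.28 and 11.49 in WT hearts, so each array carried the level its label implies. The heart muscle markers Myh6, Tnnt2, Actc1, Ryr2 and Myl2 averaged 13.57 to 13.59 in Ppif-/- hearts and 13.59 to 13.62 in WT hearts. In whole hearts a change in the number of cells of a type and a change in RNA per cell cannot be told apart. Precision is limited by the number of arrays, and separate hearts are numbered in the labels without further detail on the animals.

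Gdpd3 and Plaat1 were far higher in Ppif-/- hearts, by 21.7-fold and 10.4-fold, while the 8 other enzymes lay between 1.25-fold lower and 1.10-fold higher. Both lay below the array median in every WT heart (at most 5.41 for Gdpd3 and 5.71 for Plaat1), a range in which RMA is known to compress differences, and no detection floor was at hand, so these folds are those of the deposited values and may fall short of the change in RNA. Among all 23410 probe sets with a gene symbol, Gdpd3 ranked 1 and Plaat1 ranked 2 by the size of the increase. The sequences before their transcription starts are shown because only these members of the set differed by more than 2-fold on the arrays. They are the 250 bases before each annotated start from the RefSeq table of GRCm38.p6, 5′ to 3′ on the gene's strand, with each CpG dinucleotide in capitals. Plaat1 has 2 annotated starts there, and both windows are given.
Gdpd3, chr7:126766164-126766413, plus strand: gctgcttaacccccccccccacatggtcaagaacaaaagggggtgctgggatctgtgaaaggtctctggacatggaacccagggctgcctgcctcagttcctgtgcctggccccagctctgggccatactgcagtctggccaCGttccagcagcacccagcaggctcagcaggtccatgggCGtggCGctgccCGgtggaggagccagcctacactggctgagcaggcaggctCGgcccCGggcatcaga
Plaat1, upstream start, chr16:29209445-29209694, plus strand: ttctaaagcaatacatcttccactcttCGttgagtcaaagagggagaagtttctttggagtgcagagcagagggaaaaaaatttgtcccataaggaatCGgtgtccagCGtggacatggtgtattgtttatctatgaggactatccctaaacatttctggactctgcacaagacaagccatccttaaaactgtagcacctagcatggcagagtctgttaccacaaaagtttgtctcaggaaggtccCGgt
Plaat1, downstream start, chr16:29209858-29210107, plus strand: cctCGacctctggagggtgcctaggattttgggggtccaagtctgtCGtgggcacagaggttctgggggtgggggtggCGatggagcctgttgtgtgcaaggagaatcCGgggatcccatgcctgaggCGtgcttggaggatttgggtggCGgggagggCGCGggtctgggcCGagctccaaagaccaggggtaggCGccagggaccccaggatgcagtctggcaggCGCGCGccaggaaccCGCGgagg

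The Gdpd3 window held 6 CpG dinucleotides at 65.2% G and C. The upstream Plaat1 window held 4 at 44.0% and the downstream one 15 at 67.2%. Over all 32851 windows of this length in the table the median was 6 CpG dinucleotides and the mean G and C content 53.2%. A search of both strands for 6 letter motifs found none of them in these 3 windows. The motifs were TATAAA (12.37% of all windows), CCAAT (33.85%), CACGTG (6.02%), TGACGTCA (1.55%), GCGGGGGCG (2.57%) and TCAAGGTCA (0.39%). No motif lies within another. The absence says only that these letters do not occur in these bases. Windows were on hand for 9 of the 10 genes, 13 windows in all. CCAAT was present 68 bases before the start of Gde1, 190 and 193 bases before one start of Abhd4, and 174 bases before one start of Gdpd2, which also had TATAAA 207 bases before it.

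**Figure D1:**
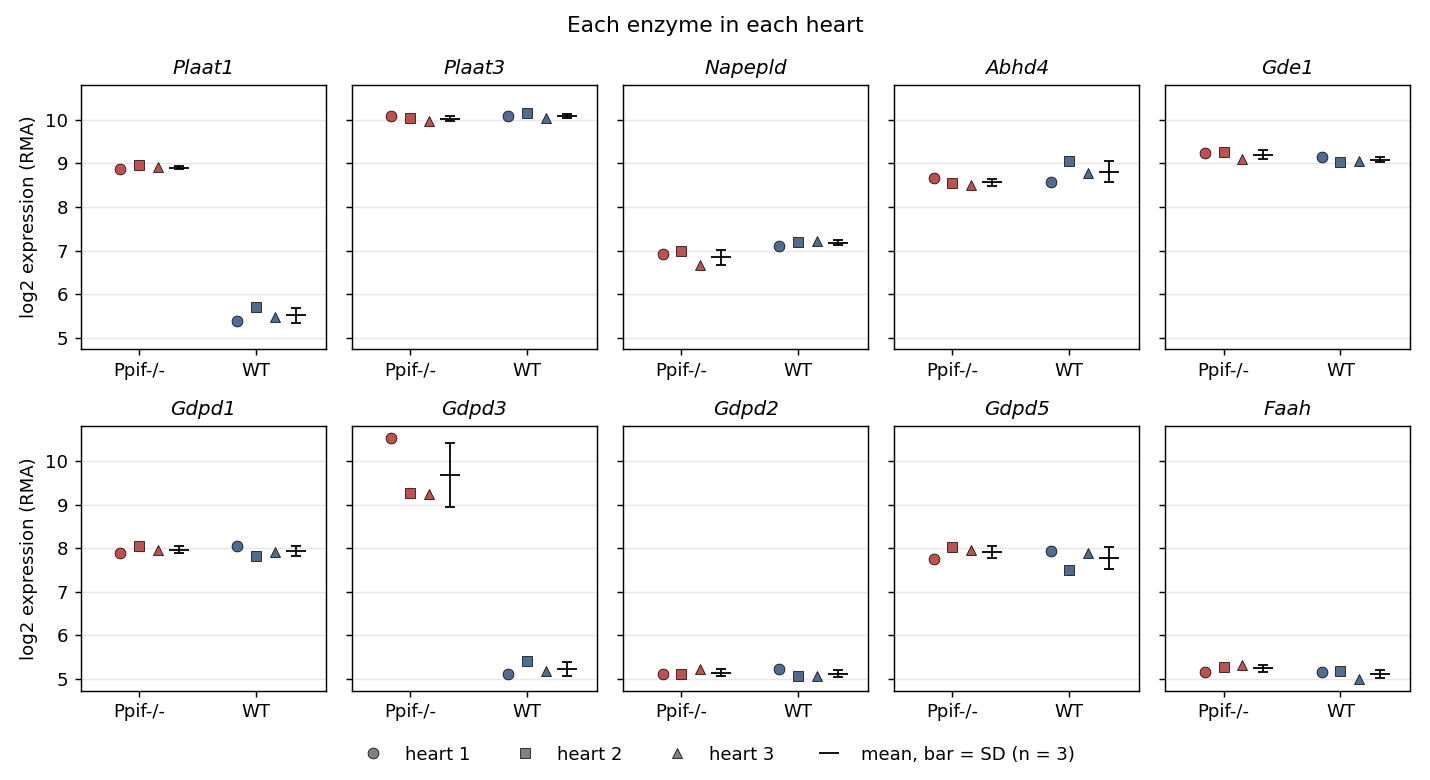
Log2 expression of each of the 10 enzymes in the 3 Ppif-/- hearts (red, left) and the 3 WT hearts (blue, right), with the mean and SD beside the points. Gdpd3 and Plaat1 lie at 9.23 to 10.52 and 8.86 to 8.95 in Ppif-/- hearts and at or below 5.71 in WT hearts, while the other panels show nearly level values.

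The N-acyltransferases were the 2 PLAAT enzymes. Plaat1, a phospholipase and acyltransferase that acts on phosphatidylethanolamine, read 8.86, 8.95 and 8.91 in Ppif-/- hearts, against 5.39, 5.71 and 5.47 in WT hearts. The groups did not overlap, and the lowest Ppif-/- heart stood 8.86-fold above the highest WT heart. The difference was 3.38 ± 0.09 (log2, SE of the fit, 95% confidence interval 3.17 to 3.60), from means of 8.90 ± 0.04 in Ppif-/- hearts and 5.52 ± 0.17 in WT hearts (SD, n = 3 each). The Ppif-/- hearts spanned only 0.09, and 82.0% of all tested probe sets had a wider span in these 3 hearts.

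Plaat3, the related phospholipase A2 best known from adipose tissue, read 10.08, 10.03 and 9.96 in Ppif-/- hearts, against 10.09, 10.15 and 10.04 in WT hearts. The groups overlapped, and the difference of -0.07 ± 0.07 had a 95% interval of -0.23 to 0.09. The interval of Plaat3 thus left out an increase of more than 1.06-fold in Ppif-/- hearts. The adipocyte markers Adipoq, Plin1, Cidec, Lep and Retn averaged 4.98 to 5.17 in Ppif-/- hearts and 5.09 to 5.16 in WT hearts. Their values were at most 5.96, below the array median, where a change is harder to see.

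Napepld, the phospholipase D that releases N-acylethanolamines in one cut, read 6.92, 6.98 and 6.66 in Ppif-/- hearts, against 7.11, 7.20 and 7.22 in WT hearts. It was the single member that lay lower in each Ppif-/- heart than in each WT heart. The difference was -0.32 ± 0.10 (95% interval -0.54 to -0.10), or 1.25-fold lower. Abhd4, which removes O-linked acyl chains from N-acyl phosphatidylethanolamine, read 8.66, 8.55 and 8.51 in Ppif-/- hearts, against 8.58, 9.06 and 8.78 in WT hearts. Ppif-/- heart 1 exceeded WT heart 1, so the groups overlapped, and the difference was -0.23 ± 0.12 (95% interval -0.51 to 0.05).

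The glycerophosphodiesterases held both the largest difference of the set and 4 genes whose means differed by 1.10-fold at most. Gdpd3, a lysophospholipase D also called GDE7, read 10.52, 9.27 and 9.23 in Ppif-/- hearts, against 5.11, 5.41 and 5.19 in WT hearts. All 3 Ppif-/- hearts were high and all 3 WT hearts low, with 14.1-fold between the lowest Ppif-/- and the highest WT heart. The means were 9.67 ± 0.73 in Ppif-/- hearts and 5.24 ± 0.16 in WT hearts (SD, n = 3 each), and the difference was 4.44 ± 0.32 (log2, SE, 95% interval 3.71 to 5.17), a fold between 13.1 and 35.9.

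Gdpd3 varied more among Ppif-/- hearts than nearly any other transcript. Ppif-/- heart 1 stood 1.25 above the next, which made it 2.41-fold higher than the mean of the other 2, and only 0.171% of tested probe sets had a wider span in these hearts. Plaat1 did not share this step, with heart 1 the lowest of the 3. Ppif-/- heart 1 also stood apart elsewhere: 37 probe sets, that of Gdpd3 included, lay at least 1 log2 unit above both other Ppif-/- hearts, against 0 in heart 2 and 0 in heart 3. Among them, and chosen after their values were seen, the proliferation gene Mki67 read 7.78, 5.68 and 6.09 in Ppif-/- hearts and 5.73, 5.47 and 5.76 in WT hearts. Rrm2, a subunit of ribonucleotide reductase, read 8.50, 6.43 and 6.74 in Ppif-/- hearts and 5.87, 6.31 and 5.99 in WT hearts. The part of that heart's state in its Gdpd3 level was not tested. Without Ppif-/- heart 1 the Gdpd3 difference was 4.01, and that of Plaat1 3.41.

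Gdpd1, also called GDE4 and the closest of these enzymes to Gdpd3 in activity, read 7.88, 8.05 and 7.95 in Ppif-/- hearts, against 8.06, 7.82 and 7.92 in WT hearts. The values interleaved, and the difference was 0.02 ± 0.09 (95% interval -0.17 to 0.22). Gde1, which hydrolyses glycerophospho-N-acylethanolamines, read 9.24, 9.27 and 9.09 in Ppif-/- hearts, against 9.15, 9.03 and 9.06 in WT hearts. It differed by 0.12 ± 0.08 (95% interval -0.05 to 0.30), with Ppif-/- heart 3 inside the WT range.

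Gdpd2, whose product GDE3 cleaves glycerophosphoinositol, lay low in both genotypes at 5.11, 5.11 and 5.23 in Ppif-/- hearts and 5.22, 5.08 and 5.08 in WT hearts. Gdpd5, whose product GDE2 sheds proteins held by a glycosylphosphatidylinositol anchor, read 7.75, 8.02 and 7.95 in Ppif-/- hearts, against 7.94, 7.49 and 7.90 in WT hearts. Both overlapped between genotypes, with differences of 0.03 ± 0.07 for Gdpd2 and 0.13 ± 0.13 for Gdpd5. Faah, the hydrolase that ends N-acylethanolamine signals, read 5.16, 5.28 and 5.32 in Ppif-/- hearts, against 5.16, 5.18 and 5.01 in WT hearts. It differed by 0.14 ± 0.08 (95% interval -0.05 to 0.32) at a level below the array median, where a change is harder to see.

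By limma over all 23410 probe sets at an adjusted p of 0.05, 2 of the 10 enzymes were called higher and 0 lower in Ppif-/- hearts, beside 0.624% of all probe sets called higher and 0.461% called lower. Groups did not overlap for 3 of the 10, beside 19.8% of all probe sets. The median difference was 0.08 over the 10 genes and 0.00 over all probe sets. Because the set was assembled with this contrast in view, nothing is read from these counts. The 95% intervals of the 8 others together ran from -0.54 to 0.44, so that a decrease of more than 1.46-fold or an increase of more than 1.35-fold lay outside the interval of each.

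**Figure D2:**
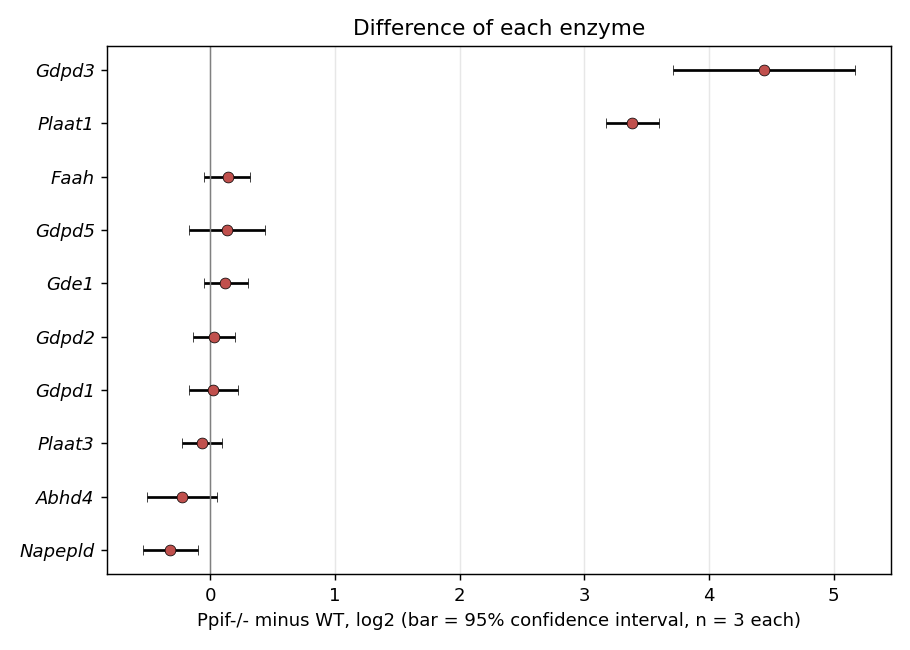
Log2 difference of each enzyme, Ppif-/- minus WT, with its 95% confidence interval from the limma fit (n = 3 hearts each). Gdpd3 at 4.44 and Plaat1 at 3.38 stand far right of the other 8, which lie between -0.32 and 0.14.

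WT hearts differed among themselves for some of these genes. WT heart 2 was the highest WT heart for Abhd4 (9.06) and the lowest for Gdpd5 (7.49), and only 5.96% and 7.61% of probe sets had a wider span among WT hearts than these genes. In that heart 27 probe sets lay at least 1 log2 unit above both other WT hearts, against 1 in WT heart 1 and 1 in WT heart 3. Without WT heart 2 the Abhd4 difference was -0.11 and that of Gdpd5 was -0.01, while Napepld stood at -0.31.

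Genes with neighbouring roles were counted on a list chosen by role, with earlier results of these data known, of which 54 of 58 were measured. For Enpp2, Lpar5, Tafazzin and Pla2g4b no probe set annotated to that gene alone was found, so nothing is known of them here. Of the 54, 1 rose in Ppif-/- hearts and 0 fell in limma over all probe sets, beside 1.09% of all probe sets called in either direction. Mboat2, which re-esterifies lysophospholipids such as those left by phospholipases, was the gene that rose. It read 8.39, 8.70 and 8.35 in Ppif-/- hearts, against 6.90, 6.88 and 7.02 in WT hearts. All Ppif-/- hearts lay above all WT hearts, 2.91-fold on average (1.54 ± 0.10, limma adjusted p = 0.00061). The 53 others lay between -0.39 and 0.48, and the median of the 54 was -0.01. At an unadjusted p under 0.05 there were 7 higher and 6 lower, or 24.1% of the list beside 12.9% of all probe sets. Because earlier results were known when the list was made, its counts and p-values are given as a description.

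Within the role groups, the genes with the smallest p are given where none passed. Among the other N-acyltransferases this was Plaat5, at 0.06 ± 0.07 (limma adjusted p = 0.802), and among the other glycerophosphodiesterases Gdpd4, at 0.08 ± 0.10 (limma adjusted p = 0.826). For other routes from N-acyl phosphatidylethanolamine it was the phosphatase gene Inpp5d, at 0.03 ± 0.08 (limma adjusted p = 0.922). Ptgs2, the cyclooxygenase that can oxygenate anandamide, stood at 0.48 ± 0.20 (limma adjusted p = 0.361) and Gpr119, a receptor for oleoylethanolamide, at 0.24 ± 0.08 (limma adjusted p = 0.292). Abhd6, a monoacylglycerol hydrolase of the 2-arachidonoylglycerol branch, was at -0.25 ± 0.07 (limma adjusted p = 0.175).

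For lysophosphatidic acid the smallest p belonged to Plpp1, a phosphatase that degrades it, with 9.88, 10.03 and 9.80 in Ppif-/- hearts and 10.25, 10.24 and 10.27 in WT hearts. Each Ppif-/- heart was below each WT heart, yet the difference of -0.35 ± 0.08 did not pass over all probe sets (limma adjusted p = 0.0959). It did pass when dim probe sets were left out or a variance trend was fitted (limma adjusted p = 0.0486 and 0.031). The related phosphatase genes lay the other way and did not pass either, Plpp2 at 0.38 ± 0.10 (limma adjusted p = 0.162) and Plpp3 at 0.11 ± 0.06 (limma adjusted p = 0.52), both without overlap of the groups. Agps, an enzyme of peroxisomal ether lipid synthesis, was at -0.22 ± 0.07 (limma adjusted p = 0.204). Lclat1, a lysocardiolipin acyltransferase, was at 0.43 ± 0.17 (limma adjusted p = 0.326), or 0.22 without WT heart 2, where it read 10.41 against 11.01 and 11.09 in the other WT hearts. Pla2g7, the acetylhydrolase of platelet-activating factor, was at 0.26 ± 0.10 (limma adjusted p = 0.301).

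**Figure D3:**
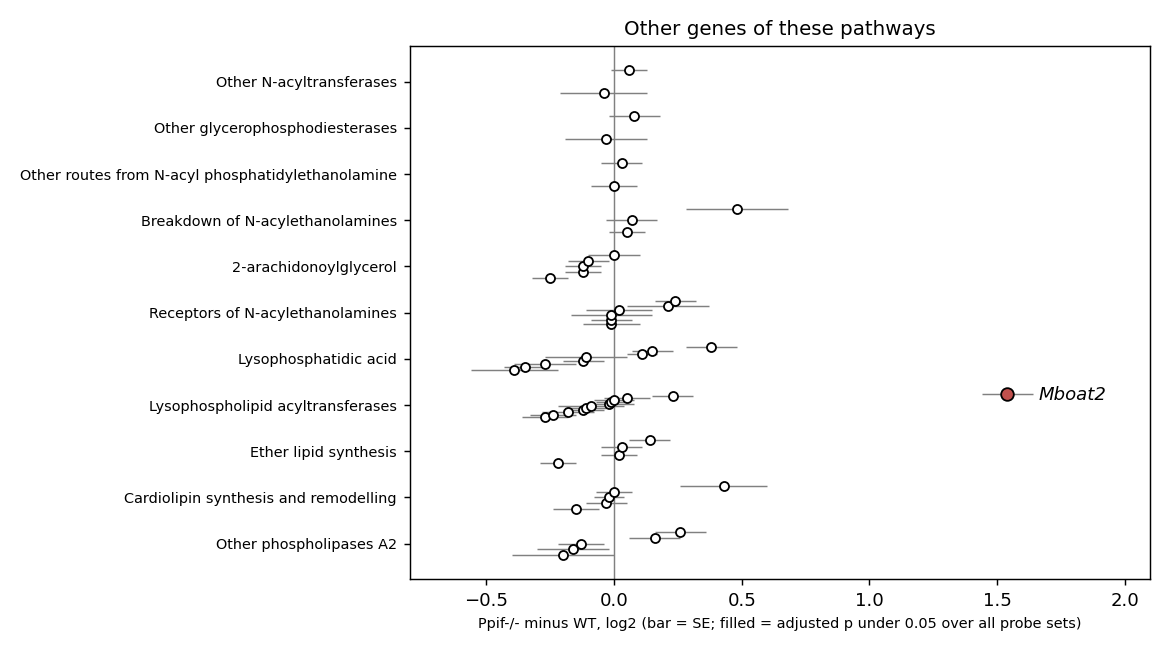
Log2 difference, Ppif-/- minus WT, with its SE, of the 54 measured genes of neighbouring pathways, by role; the filled point passed an adjusted p of 0.05 over all probe sets. Mboat2 at 1.54 stands alone to the right, and the 53 open points lie between -0.39 and 0.48.

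The genes beside Gdpd3 and Plaat1 on their chromosomes were examined because the knockout line carries a Sv129 origin. Loss of Ppif and strain origin cannot be told apart in this design, whatever the neighbours read. The part of strain origin in the Gdpd3 and Plaat1 levels was not tested. Of the 10 measured neighbours of Gdpd3, 5 on each side, 0 passed in limma, and an unadjusted p under 0.05 was reached by 1. This was Tlcd3b, higher in each Ppif-/- heart than in each WT heart, at 0.41 ± 0.13 (limma adjusted p = 0.228). Sgf29, Slx1b, Coro1a and Ypel3 were lower in each Ppif-/- heart than in each WT heart. Of all probe sets, 19.8% were without overlap in either direction. The nearest neighbours of Gdpd3 were Coro1a, an actin-binding protein of blood cells, at -0.10 ± 0.07 and Ypel3 at -0.40 ± 0.21. Ypel3 read 8.50, 8.39 and 8.59 in Ppif-/- hearts, against 8.62, 9.44 and 8.62 in WT hearts, with WT heart 2 standing 0.82 above the lowest of its group. Of the 10 measured neighbours of Plaat1, 0 passed in limma, and an unadjusted p under 0.05 was reached by 0, with differences of -0.13 to 0.13. The nearest were Mb21d2 at 0.03 ± 0.07 and the transport ATPase gene Atp13a5 at -0.13 ± 0.07. Over the neighbours of all 10 enzymes, 100 genes in all, 1 fell and 0 rose in limma, with 10 lower and 3 higher at an unadjusted p under 0.05, beside 1.09% of all probe sets called and 12.9% at that unadjusted level. The 1 that fell was Map6, a microtubule-binding protein beside Gdpd5, at 6.46, 6.52 and 6.61 in Ppif-/- hearts and 7.01, 7.16 and 7.12 in WT hearts (-0.57 ± 0.08, limma adjusted p = 0.0141). Its call was lost without Ppif-/- heart 1 or 2 or WT heart 2 or 3, and with the whole table tested (limma adjusted p = 0.0507 to 0.069). Without Ppif-/- heart 1 another neighbour passed in its place, Itpripl2 near Gde1, chosen after its values were seen (-0.61, limma adjusted p = 0.0254). With all hearts it read 7.15, 7.95 and 7.85 in Ppif-/- hearts and 8.52, 8.56 and 8.46 in WT hearts and did not pass (-0.87 ± 0.19, limma adjusted p = 0.098).

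**Figure D4:**
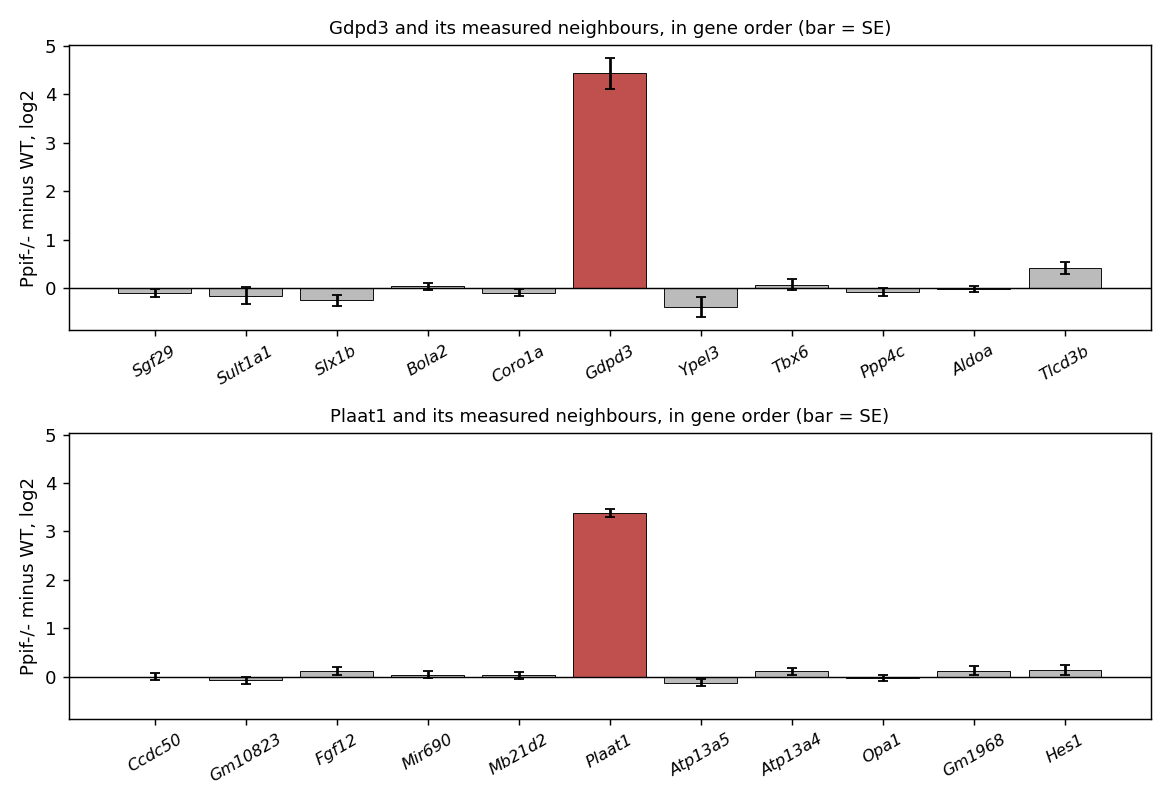
Log2 difference, Ppif-/- minus WT, with its SE, for Gdpd3 and Plaat1 (red) and 5 measured genes on each side of each (grey), in gene order. Gdpd3 at 4.44 and Plaat1 at 3.38 rise from neighbours that lie between -0.40 and 0.41 and between -0.13 and 0.13.

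The transcripts whose profile was most like that of each gene were taken by Pearson correlation over the 6 arrays. All such values are dominated by the step between genotypes, so they describe these arrays and carry no test. For Gdpd3 they were Asns, asparagine synthetase, at 0.9985, the olfactory receptor gene Olfr39 at 0.9984 and Ociad2 at 0.997. Asns read 8.44, 8.13 and 8.15 in Ppif-/- hearts and 7.16, 7.20 and 7.24 in WT hearts, with heart 1 the highest as for Gdpd3. Olfr39 read 6.16, 5.83 and 5.74 in Ppif-/- hearts and 4.55, 4.60 and 4.64 in WT hearts. Ociad2 differed by only 0.26, against 4.44 for Gdpd3, so a high correlation need not mean a difference of like size. For Plaat1 they were Pttg1 (securin) at 0.999, Hsd17b7, an enzyme of cholesterol synthesis, at 0.9986 and the actin regulator Cyfip2 at 0.9978. Their differences were 3.22, 2.14 and 2.51, against 3.38 for Plaat1. Gdpd3 and Plaat1 correlated with each other at 0.9795.

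Markers of other cell types were compared because these enzymes are also made outside heart muscle. Over all probe sets, limma called 1.09% in either direction and gave 12.9% an unadjusted p under 0.05. Of the 5 heart muscle markers 0 were called and 1 reached that unadjusted level, Ryr2, at -0.19 ± 0.06 (limma adjusted p = 0.248). Of the 5 epithelial markers 0 were called in limma, and 1 reached an unadjusted p under 0.05, with list averages of 5.52 to 5.57 in Ppif-/- hearts and 5.57 to 5.62 in WT hearts. Endothelial markers averaged 10.39 to 10.55 in Ppif-/- hearts and 10.44 to 10.54 in WT hearts, with 0 of 4 called or under an unadjusted p of 0.05 in limma. Macrophage markers averaged 7.86 to 7.92 in Ppif-/- hearts and 7.88 to 7.89 in WT hearts, and 1 of 4, Cd68, rose by 0.56 (limma adjusted p = 0.0394). Of the same list, Cd163 was at -0.53 ± 0.12 and did not pass (limma adjusted p = 0.0964), so that 2 of 4 had an unadjusted p under 0.05, in opposite directions, and Csf1r stood at -0.10 ± 0.06. Fibroblast markers averaged 9.73 to 9.84 in Ppif-/- hearts and 9.86 to 9.91 in WT hearts, and 1 of 4, Pdgfra, fell by 0.44 (limma adjusted p = 0.0246). The other fibroblast markers overlapped between genotypes, with Col1a1 at 0.21 ± 0.11, Dcn at -0.03 ± 0.07 and Tcf21 at -0.08 ± 0.10. Skeletal muscle markers averaged 5.43 to 5.50 in Ppif-/- hearts and 5.70 to 5.74 in WT hearts, with 1 of 5, the myosin light chain Myl1, lower by 1.44 (limma adjusted p = 0.000555). The rest of that list did not follow Myl1, with Myh4 at 0.14 ± 0.08, Actn3 at 0.07 ± 0.09, Myh1 at -0.04 ± 0.07 and Tnnt3 at -0.05 ± 0.08. Red cell markers, 2 of 4 measured, averaged 6.82 to 6.91 in Ppif-/- hearts and 6.51 to 6.81 in WT hearts. These averages did not overlap (6.82 against 6.81 at the nearest), nor did those of fibroblast and skeletal muscle markers. Single probe sets lacked overlap in 19.8%, a share that was not computed for list averages. In each of these lists 1 gene had the largest difference, Alas2, Pdgfra and Myl1 in turn, so the averages do not describe the lists as a whole. Neither red cell gene passed in limma, with Alas2, the heme synthesis enzyme of red cells, at 0.38 ± 0.14 (limma adjusted p = 0.299) and Slc4a1 at 0.01 ± 0.07. Both genes overlapped between genotypes. Markers of neurons and glia averaged 5.50 to 5.93 in Ppif-/- hearts and 5.54 to 5.74 in WT hearts. The part of these markers in the Gdpd3 and Plaat1 levels was not tested.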

How the data were processed

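Total RNA of 6 hearts was measured on Affymetrix Gene 1.0 ST arrays, 1 per heart. The authors deposited log2 expression per probe set, made with RMA per the submitters' processing notes; the sources used here name no software version or filter. Values from 1.91 to 14.63 were used as deposited, and 0 array pairs were identical. Detection calls and batches were not analysed here. Gene names came from the platform annotation, updated by Entrez identifier to the RefSeq gene table of GRCm38.p6 (21698 of 21789 with 1 symbol matched). Ppif-/- was compared with WT in limma 3.58.1 in R 4.3.3 (lmFit, eBayes, 2-sided, no covariates) over the 23410 probe sets with a symbol, with p-values adjusted by Benjamini-Hochberg (threshold 0.05). The procedure was tested on simulated data drawn independently for each probe set, which does not bear on correlated probe sets or on strain origin. Listed genes were read at their probe set with the highest mean.

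The enzymes and all lists were chosen with earlier results of these data known. Named are all 10 enzymes, Ppif, every list gene or neighbour past the threshold, the smallest p in each other role group, the nearest neighbours of Gdpd3 and Plaat1 and the 3 most alike profiles of each. Further genes, such as Tlcd3b and Ryr2, were named after their values were seen. Alternatives were other sets of probe sets, a filter on low values, quantile normalisation, median centring, robust or trended eBayes, array weights, a replicate block and leaving out each heart.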

Additional observations from a re-analysis of the deposited data

How the results depend on the processing

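The Gdpd3 difference ran from 4.01 to 4.66 and that of Plaat1 from 3.31 to 3.47 over 15 alternatives each, given as a description. Changing the probe sets tested, the eBayes step or the replicate block cannot move a difference of means here. These ranges thus come from normalisation, array weights and leaving out hearts. Both genes passed the filter on low values only through their Ppif-/- hearts, as their WT hearts lay below the array median. Napepld ran from -0.39 to -0.23. Mboat2 was called in all 15 (limma adjusted p = 0.000112 to 0.00633). The count over all probe sets, 254, was 131 when the whole table was tested, 403 on brighter probe sets, 386 with array weights, 453 with a trend in the variance, and 131 to 171 when 1 heart was left out. With the replicate number as a block it was 160. Same-numbered hearts deviated together at correlations of -0.077, -0.061 and 0.118, so the numbers were not taken to pair hearts. The pathway count of 1 became 2 on brighter probe sets and with a trend, by the addition of Plpp1. The neighbour count of 1 was 0 in limma with the whole table tested (12 at an unadjusted p under 0.05) and 0 to 1 without 1 heart (11 to 16), the gene being Map6 except without Ppif-/- heart 1, where it was Itpripl2. Among genes close to no difference, leaving out 1 heart turned the sign of Gdpd4 (0.00 to 0.16), Inpp5d (-0.02 to 0.08), Gdpd1 (-0.03 to 0.09), Gdpd2 (-0.01 to 0.07) and Gdpd5 (-0.01 to 0.21), and Ptgs2 ran from 0.32 to 0.72. Causes of these shifts were not tested. Gdpd2 and Faah were left out by the filter on low values, and no detection call was used to set a floor.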
